A study of Mus musculus with 16 samples.

Results

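The 32 genes described here act in meiosis, the divisions that turn diploid germ cells into haploid ones. They were chosen by name for their work on meiotic chromosomes, in recombination and in progression through meiosis, and each was represented by the probe set with the highest mean over 16 arrays. Of the 32, 31 had a probe set paired with that gene alone, Rnf212 had none, and 26 were bright enough to be tested. They stand among 18193 genes named on the array.

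The samples were cultures of mouse spermatogonial stem cells, the cells that sustain sperm production, and they held 4 groups of 4 arrays. Cells on a C57BL/6 background were derived from germ cells enriched for Thy1 and grown without serum in 20 ng/ml GDNF, 150 ng/ml GFRA1 and 1 ng/ml FGF2. One group received a negative control siRNA, and the others received an siRNA against Etv5, Bcl6b or Pou3f1, transcription factors whose genes respond to GDNF in these cells. All siRNA treatments lasted 30 h, RNA was read on Affymetrix Mouse 430 2.0 arrays, and the values are linear probe set intensities.

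Meiotic chromosomes are built as axes of cohesin and HORMA domain proteins that the synaptonemal complex then joins in pairs. SPO11 cuts the DNA, the recombinase DMC1 leads strand exchange between homologues, and MutS and MutL proteins turn some of these joints into crossovers. In the mouse testis this programme runs in spermatocytes, after STRA8 and retinoic acid start it, while RNA of several of its genes is already present in spermatogonia.

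The siRNA targets fell in their own knockdowns, and germ cell markers were bright on the control arrays. Etv5 fell by 1.49 (limma adjusted p = 0.00115), Bcl6b fell by 1.01 (adjusted p = 1.67e-04) and Pou3f1 fell by 0.68 (adjusted p = 0.00103), all on the scale of log2(intensity + 1) used for every difference below. On the control arrays the germ cell RNA helicase Ddx4 read 6709 to 7104, the spermatogonial factor Zbtb16 read 1700 to 1838 and the GDNF co-receptor Gfra1 read 1402 to 1448. All 14 fibroblast markers on the list also lay above the array median, with the collagen gene Col1a1 at 5973 to 7019, and so did 7 of 9 macrophage markers and 3 of 9 Sertoli cell markers. In such bulk RNA, fewer cells of a type and less RNA per cell cannot be told apart.

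One array, Bcl6b knockdown replicate 1, was unlike the remaining 15. It correlated with them at a mean of 0.975, against 0.996 to 0.997 for each of those. The 3' probe set of Gapdh exceeded its 5' probe set by 1.03 (log2) on that array, against -0.53 to -0.45 elsewhere, and for Actb the excess was 3.08 against 0.62 to 0.76. The results below are therefore given with and without that array, which enters the shared estimate of spread even where the Bcl6b group is not compared. Whether the arrays of a group stand for separate cultures is not in the labels, so the p-values cover the spread between these samples, which may be technical, and the number of arrays limits the precision.

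Start-site sequence was available for 28 of the 32 genes, as 34 windows of 300 bases in RefSeq on GRCm38.p6, with 250 bases before and 50 after the start. On both strands these were searched for the E-box CACGTG, the E2F-type motif GCGGGAA, the ETS-type motif CCGGAAG, the octamer ATGCAAAT and the CRE TGACGTCA. No pair of these motifs contains one another. E-boxes bind MYC and MAX family proteins, among them the MGA and MAX complex with E2F6 that is known to silence meiotic genes in mouse embryonic stem cells. The first 4 windows below belong to genes bright in control cells that hold both an E-box and the E2F-type motif. The fifth, of Rec8, holds none of the 5 motifs, and the last belongs to Prdm9, whose probe set was near the floor. Capitals mark the motif matches, and each sequence runs 5' to 3' on the strand of the gene.
The Sycp3 window lies at chr10:88459337-88459636 on the plus strand, Tex12 at chr9:50561219-50561518 on the minus strand and Hormad1 at chr3:95559427-95559726 on the plus strand. The Stag3 window lies at chr5:138280259-138280558 on the plus strand, Rec8 at chr14:55617916-55618215 on the plus strand and Prdm9 at chr17:15564305-15564604 on the minus strand.
Sycp3: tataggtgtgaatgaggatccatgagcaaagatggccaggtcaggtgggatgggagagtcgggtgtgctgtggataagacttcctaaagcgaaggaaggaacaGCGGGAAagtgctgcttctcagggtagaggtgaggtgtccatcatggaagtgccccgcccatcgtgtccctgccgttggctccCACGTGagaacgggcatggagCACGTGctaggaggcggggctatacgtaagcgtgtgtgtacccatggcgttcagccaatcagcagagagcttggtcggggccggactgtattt
Tex12: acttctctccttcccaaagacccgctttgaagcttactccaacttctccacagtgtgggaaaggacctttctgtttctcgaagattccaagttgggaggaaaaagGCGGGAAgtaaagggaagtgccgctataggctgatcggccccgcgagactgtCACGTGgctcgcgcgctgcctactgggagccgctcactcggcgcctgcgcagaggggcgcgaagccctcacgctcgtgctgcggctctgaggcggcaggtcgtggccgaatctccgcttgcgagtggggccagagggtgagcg
Hormad1: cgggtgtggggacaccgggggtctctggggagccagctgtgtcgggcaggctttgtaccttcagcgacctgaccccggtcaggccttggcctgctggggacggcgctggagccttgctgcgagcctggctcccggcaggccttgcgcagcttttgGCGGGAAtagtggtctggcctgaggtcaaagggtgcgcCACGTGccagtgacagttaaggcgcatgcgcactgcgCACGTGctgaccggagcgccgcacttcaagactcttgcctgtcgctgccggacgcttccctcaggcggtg
Stag3: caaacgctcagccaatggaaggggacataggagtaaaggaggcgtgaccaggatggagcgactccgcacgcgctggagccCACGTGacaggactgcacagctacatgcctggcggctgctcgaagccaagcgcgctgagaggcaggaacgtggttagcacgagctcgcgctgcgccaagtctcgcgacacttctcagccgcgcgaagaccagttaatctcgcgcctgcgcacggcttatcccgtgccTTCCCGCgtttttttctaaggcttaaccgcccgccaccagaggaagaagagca
Rec8: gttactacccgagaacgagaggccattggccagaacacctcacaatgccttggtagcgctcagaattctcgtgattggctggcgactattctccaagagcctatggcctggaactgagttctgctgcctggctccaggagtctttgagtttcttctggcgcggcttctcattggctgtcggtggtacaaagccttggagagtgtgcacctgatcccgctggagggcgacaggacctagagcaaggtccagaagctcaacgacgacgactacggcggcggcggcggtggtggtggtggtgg
Prdm9: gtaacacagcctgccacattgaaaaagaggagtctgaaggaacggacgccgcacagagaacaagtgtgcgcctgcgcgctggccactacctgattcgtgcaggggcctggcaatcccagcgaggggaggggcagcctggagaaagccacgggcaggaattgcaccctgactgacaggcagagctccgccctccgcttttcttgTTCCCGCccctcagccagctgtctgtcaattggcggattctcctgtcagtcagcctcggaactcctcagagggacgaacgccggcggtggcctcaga

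The E2F-type motif was in 13 of the 34 windows (38.2%), against 4.60% of 32851 windows of all genes, and the E-box was in 8 (23.5%), against 7.15%. Hormad1, Rnf212, Stag3, Syce2, Sycp3 and Tex12, 6 of the 28 genes, held both in 1 window. Of all 32851 windows, 150 (0.457%) held both, which is a share of windows and not of genes. The share of all genes with both was not counted. Neither motif was found in any window of 15 genes. The ETS-type motif, the class that ETV5 binds, was in 14.7% of the windows against 8.86% of all, and the octamer, the class that POU3F1 binds, was in 2.94% against 1.73%. The CRE was in 5.88% against 1.79%. The windows of the 28 genes were rich in CpG, with a median of 21.5 CpG against 8 for 27025 genes and a median GC content of 61.0% against 53.3%, and the motif shares were not adjusted for this. The median was 21 CpG in the 23 genes above the array median and 22.5 in 4 genes below it. These matches describe letters in a window and are not evidence of binding.

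Most of the meiosis genes were already on in control cultures. Of the 31, 26 read above the median of their array on all 4 control arrays (83.9%), against 60.4% of all named genes, and the same 26 did so on all 16 arrays. All 6 synaptonemal complex genes, all 4 cohesin genes, all 3 HORMA group genes and all 5 strand exchange genes were among them. So were 4 of 6 crossover genes, 2 of 4 genes of double-strand break formation and 2 of 3 regulators. A stricter line at the 67th percentile of each array left 22, and the share of all named genes above that line was not counted. Intensity depends on the probe as well as the RNA, so levels of different genes are given as percentiles of the array and are not ranked as amounts of RNA.

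**Figure D1:**
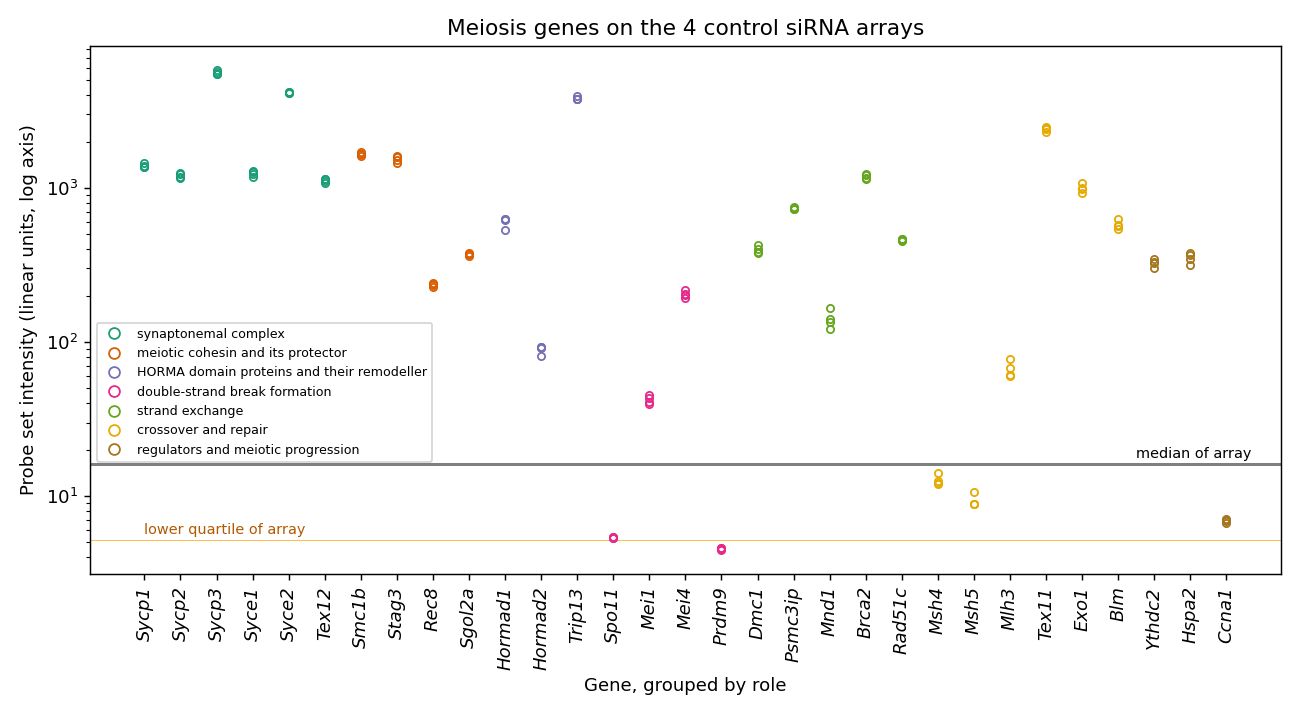
Probe set intensity (log axis) of 31 meiosis genes on each of the 4 control siRNA arrays, grouped and coloured by role, with the median of the arrays as a dark band and the lower quartile as an orange band. Of the 31 genes, 26 lie above the median on every control array, and Prdm9, Spo11, Ccna1, Msh5 and Msh4 lie below it.

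The synaptonemal complex genes sat between percentile 86.7 and percentile 97.2 of the control arrays (means of 4). Sycp3, which encodes a lateral element protein, read 5634 ± 167 (SD, n = 4). Sycp1, the transverse filament gene, read 1393 ± 36.7, and Sycp2, the partner of Sycp3 on the lateral element, read 1207 ± 41.0. The central element genes Syce1, Syce2 and Tex12 read 1240 ± 49.8, 4165 ± 41.2 and 1122 ± 28.6. All 6 were thus in the top part of the array, while markers of later stages were split. Prm1, Prm2, Tnp2, Acr and Acrv1, genes of spermatid nuclei and the acrosome, lay below the median on all 4 control arrays, as did Piwil1 and Pgk2 of spermatocytes. Of 18 spermatocyte and spermatid markers 12 lay below the median and 6 above it on all 4 control arrays. Among the 6, Tbpl1, a relative of the TATA-binding protein gene, read 774 to 810. The chaperone gene Clgn read 174 to 208, the kinase gene Tesk2 read 187 to 197 and the transcription factor gene Crem read 150 to 201. Ldhc, a sperm lactate dehydrogenase, read 34.4 to 41.2 and Tnp1, a transition protein gene, read 21.5 to 24.8, nearer to the array medians of 15.6 to 17.1.

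The cohesin group lay between percentile 70.0 and percentile 90.3. Smc1b and Stag3, subunits of the meiotic cohesin ring, read 1662 ± 43.4 and 1544 ± 77.8. Rec8, the meiotic kleisin that closes the ring, read 236 ± 6.84. Sgol2a (Sgo2a in the array annotation), the shugoshin that protects centromeric cohesin, read 371 ± 7.27. Of the HORMA group, Hormad1 and Hormad2, which mark unsynapsed axes, read 601 ± 47.3 and 89.4 ± 5.83, and Trip13, the ATPase that remodels them, read 3814 ± 84.3. Trip13 also acts in the mitotic spindle checkpoint, so its level need not reflect meiosis.

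The genes of double-strand break formation were split between bright and dim probe sets. Spo11, the catalytic subunit of the break machinery, read 5.33 to 5.40 on the control arrays, at percentile 27.0 to 27.7. Prdm9, the methyltransferase that places breaks in mouse, read 4.49 to 4.60 and was the only gene near the floor, defined as below the lower quartile on at least 3 of the 4 control arrays, as 18.5% of all named genes were. Mei4, a break-forming partner of SPO11, was brighter at 205 ± 11, and Mei1, also needed for breaks, read 42.1 ± 2.60. Mei1 and Mei4 thus lay above the array median and Spo11 and Prdm9 below it on all 4 control arrays.

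All 5 strand exchange genes were above the median. Dmc1, the meiotic recombinase, read 398 ± 21.7, and its cofactor genes Psmc3ip (HOP2) and Mnd1 read 735 ± 9.68 and 141 ± 19.1. Brca2, which loads recombinases, and Rad51c, a gene of recombinational repair, read 1184 ± 40.9 and 462 ± 5.79, and both also serve mitotic repair. Of the crossover genes, Tex11 read 2415 ± 70.2, Exo1, a nuclease, read 1000 ± 56.1, Blm, a helicase, read 578 ± 36.7 and Mlh3, a MutL endonuclease subunit, read 66.6 ± 7.97. Their MutS partners were dim, with Msh4 at 11.9 to 14.1 and Msh5 at 8.87 to 10.7 on the control arrays, both below the median on all 4. Msh4 crossed it on 1 of 16 arrays, Pou3f1 knockdown replicate 1, at 16.8.

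Among the regulators, Ythdc2, an RNA helicase needed to leave the mitotic programme, read 327 ± 18, and Hspa2, a chaperone of spermatocytes, read 353 ± 26.5. Ccna1, the cyclin of the first meiotic division, was dim at 6.67 to 7.08. Stra8, the retinoic acid-responsive entry gene, read 704 to 770, and Meioc, which works with YTHDC2, read 272 to 308. Mybl1, a transcription factor of pachytene spermatocytes, read 12.6 to 13.9, below the median. The members below the median were thus Spo11, Prdm9, Msh4, Msh5 and Ccna1, and none of these 5 passed the filter for the test.

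None of the 26 tested meiosis genes passed an adjusted p of 0.05 in any knockdown when all 16 arrays were fitted. The count was 0 of 26 for Etv5 knockdown, where 2.09% of 11145 tested genes were called, 0 for Bcl6b knockdown, where 3.21% were called, and 0 for Pou3f1 knockdown, where 2.25% were called (limma, Benjamini-Hochberg over all tested genes). Set against those shares, a count of 0 among 26 genes does not set the meiosis genes apart. At an unadjusted p under 0.05 there were 3 genes in each knockdown. The smallest adjusted p were 0.246 for Sycp3 in Etv5 knockdown, 0.0807 for Mnd1 in Bcl6b knockdown and 0.125 for Mei4 in Pou3f1 knockdown. The 3 knockdowns share the 4 control arrays, so their differences are not independent of each other.

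The differences were small. The median difference of the 26 genes was -0.0034 in Etv5 knockdown, -0.010 in Bcl6b knockdown and 0.06 in Pou3f1 knockdown, beside medians over all tested genes of -0.026, -0.010 and -0.024. In Pou3f1 knockdown 19 of the 26 differences were above 0, against 13 in Etv5 knockdown and 11 in Bcl6b knockdown. In Bcl6b knockdown this count was 12 without Bcl6b knockdown replicate 1 and 17 with quantile normalization. With quantile normalization it was 20 in Pou3f1 and 13 in Etv5 knockdown. The share of all tested genes above 0 was not counted, so these counts have no background beside them. The 95% interval lay within 0.5 of 0, a change of 1.41-fold, for 23 of 26 genes in each knockdown. The genes with wider intervals were Mnd1, Rad51c and Mlh3 in Etv5 knockdown, Mei1, Mnd1 and Rad51c in Bcl6b knockdown, and Rec8, Mei1 and Rad51c in Pou3f1 knockdown. With that array left out the intervals of 25, 25 and 26 genes lay within that limit, and the exception was Mnd1 in both Etv5 and Bcl6b knockdown.

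**Figure D2:**
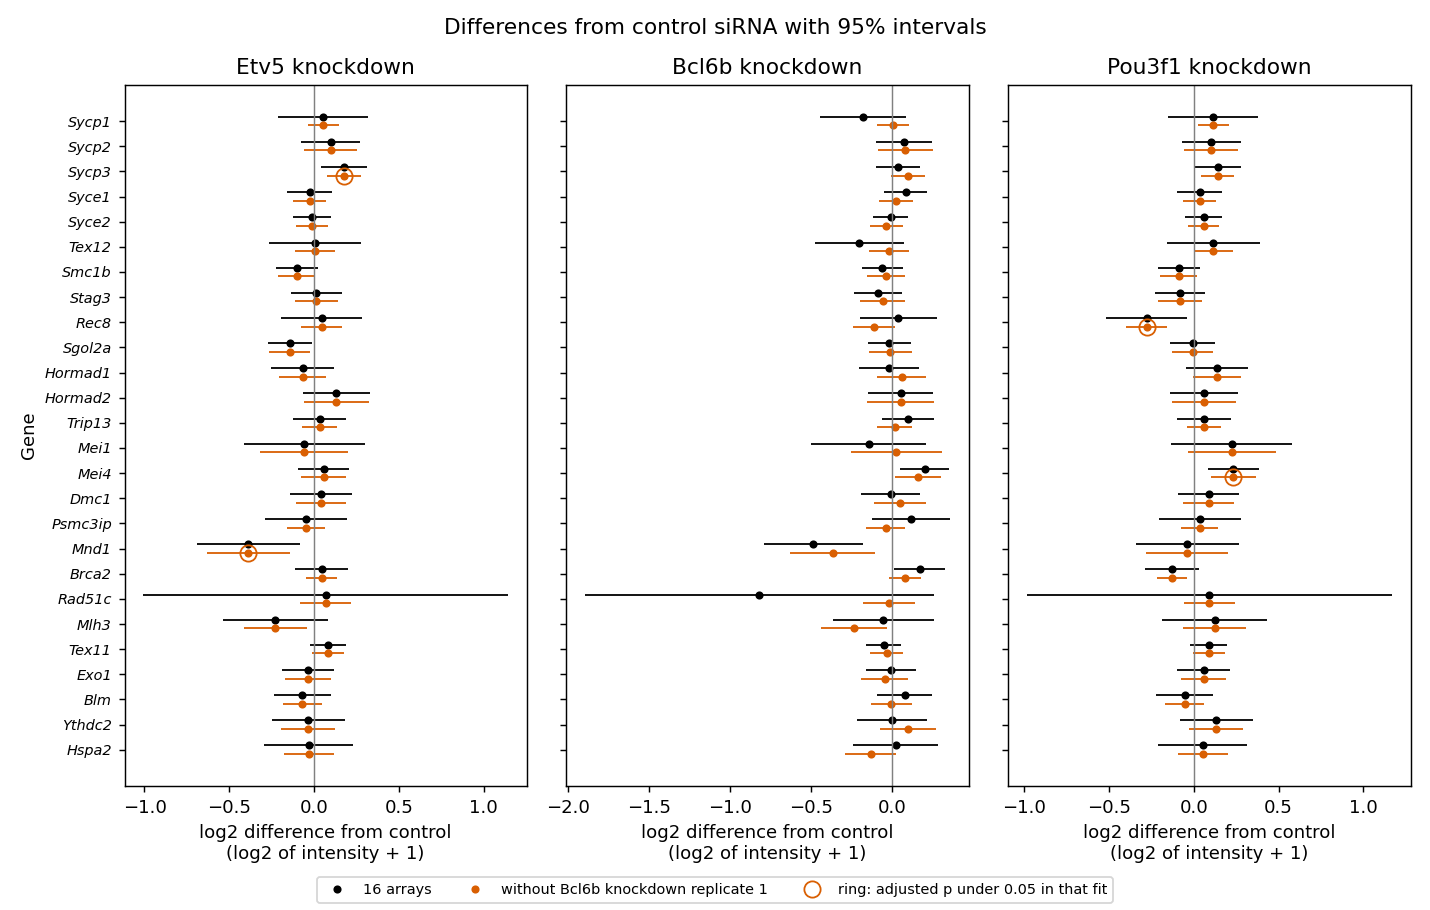
Log2 difference from control siRNA (log2 of intensity + 1) with its 95% interval for the 26 tested meiosis genes in each knockdown, from the fit of 16 arrays (black) and without Bcl6b knockdown replicate 1 (orange), with a ring where the adjusted p was under 0.05. No black point has a ring, and the orange rings mark Sycp3 and Mnd1 in Etv5 knockdown and Rec8 and Mei4 in Pou3f1 knockdown; the horizontal scales of the panels differ.

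Leaving out Bcl6b knockdown replicate 1, the spread was smaller and a few genes were called. The median standard error over the 26 genes fell from 0.083 to 0.06 in the Etv5 and Pou3f1 comparisons, whose own arrays were unchanged. In Etv5 knockdown Sycp3 rose and Mnd1 fell, 2 of 26 where 9.52% of 11121 genes were called. In Pou3f1 knockdown Mei4 rose and Rec8 fell, 2 of 26 where 11.4% were called. In Bcl6b knockdown 0 of 26 were called where 11% of all genes were, with 3 genes at an unadjusted p under 0.05. The shares of members called were thus near or below those of the whole array.

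Sycp3 read 5837, 5531, 5469 and 5700 on the control arrays and 6226, 6789, 6118 and 6352 in Etv5 knockdown. All 4 Etv5 knockdown arrays were above all 4 control arrays. The difference was 0.18 (SE 0.064, adjusted p = 0.246) with 16 arrays and 0.18 (SE 0.047, adjusted p = 0.0226) without Bcl6b knockdown replicate 1. In Pou3f1 knockdown Sycp3 read 5908, 5881, 6326 and 6767, again above every control array, with a difference of 0.14 that was not called (adjusted p = 0.383 with and 0.0608 without that array). In Bcl6b knockdown it read 5108, 6275, 5645 and 6169, where replicate 1 was the lowest array of all 16 and the groups overlapped. The other 5 synaptonemal complex genes were called in no knockdown, with or without that array.

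Mnd1, the cofactor gene of DMC1, was low in Etv5 and Bcl6b knockdown. It read 134, 122, 140 and 167 on the control arrays, 86.2, 111, 126 and 108 in Etv5 knockdown, and 77.5, 113, 113 and 98.9 in Bcl6b knockdown. Every Bcl6b knockdown array was below every control array, while 1 Etv5 knockdown array, at 126, lay above the lowest control array, at 122. The difference in Etv5 knockdown was -0.39 (SE 0.143, adjusted p = 0.266) with 16 arrays and -0.39 (SE 0.115, adjusted p = 0.042) without Bcl6b knockdown replicate 1. In Bcl6b knockdown it was -0.49 (SE 0.143, adjusted p = 0.0807) and, without that array, -0.37 (SE 0.125, adjusted p = 0.0664). In Pou3f1 knockdown Mnd1 read 157, 145, 126 and 120, and the difference was -0.04. Its partner Psmc3ip differed by -0.05 in Etv5 knockdown and by -0.04 in Bcl6b knockdown without that array.

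Rec8 was low in Pou3f1 knockdown. It read 233, 242, 227 and 240 on the control arrays and 198, 206, 188 and 184 in Pou3f1 knockdown, with no overlap. The difference was -0.28 (SE 0.113, adjusted p = 0.304) with 16 arrays and -0.28 (SE 0.057, adjusted p = 0.0038) without Bcl6b knockdown replicate 1. In Etv5 knockdown Rec8 read 237, 244, 242 and 250. In Bcl6b knockdown it read 332 on replicate 1 and 206, 214 and 234 on the other arrays, so replicate 1 lay above all other 15 arrays. The other cohesin genes Smc1b, Stag3 and Sgol2a differed by -0.09, -0.08 and -0.01 in Pou3f1 knockdown and were not called with or without that array. Sgol2a read 361 to 378 on the control arrays and 301 to 360 in Etv5 knockdown, below every control array, at a difference of -0.14 that was not called (adjusted p = 0.387 with 16 arrays and 0.13 without replicate 1).

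Mei4 was higher in Pou3f1 knockdown. It read 203, 204, 192 and 219 on the control arrays, 228, 229, 258 and 246 in Pou3f1 knockdown, and 256, 228, 232 and 225 in Bcl6b knockdown. Both knockdown groups lay above all control arrays. The difference in Pou3f1 knockdown was 0.23 (SE 0.071, adjusted p = 0.125) with 16 arrays and 0.23 (SE 0.063, adjusted p = 0.0226) without Bcl6b knockdown replicate 1. In Bcl6b knockdown the difference was 0.20 (adjusted p = 0.138), or 0.16 without that array (adjusted p = 0.143). In Etv5 knockdown Mei4 read 216, 231, 199.5 and 205 and overlapped with the controls.

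Groups that did not overlap were counted next, beside the share of all genes with such groups. With all arrays, 2 of 26 did not overlap with control in Etv5 knockdown (Sycp3 and Sgol2a), against 17.3% of all tested genes. In Bcl6b knockdown 2 of 26 did not (Mei4 and Mnd1), against 14.7%, and in Pou3f1 knockdown 5 of 26 did not (Sycp3, Hormad1 and Mei4 higher, Rec8 and Brca2 lower), against 18.1%. Leaving out Bcl6b knockdown replicate 1, 3 of 26 did not overlap in Bcl6b knockdown (Mlh3 also lower), against 27.5% of all tested genes, and the counts and shares of the other knockdowns were as with all arrays. Hormad1 read 628, 624, 530 and 622 on the control arrays, 525, 640, 587 and 544 in Etv5 knockdown, 505, 625, 639 and 609 in Bcl6b knockdown, and 639, 629, 662 and 711 in Pou3f1 knockdown. Only the Pou3f1 knockdown group of these cleared all control arrays, at a difference of 0.14 that was not called (adjusted p = 0.6 with 16 arrays). Of the dim genes, only Msh4 crossed the array median, at 16.8 on Pou3f1 knockdown replicate 1, where the median was 15.7. Spo11 read at most 5.88, Ccna1 at most 7.43, Msh5 at most 13.3 and Prdm9 at most 6.04 on any of the 16 arrays.

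**Figure D3:**
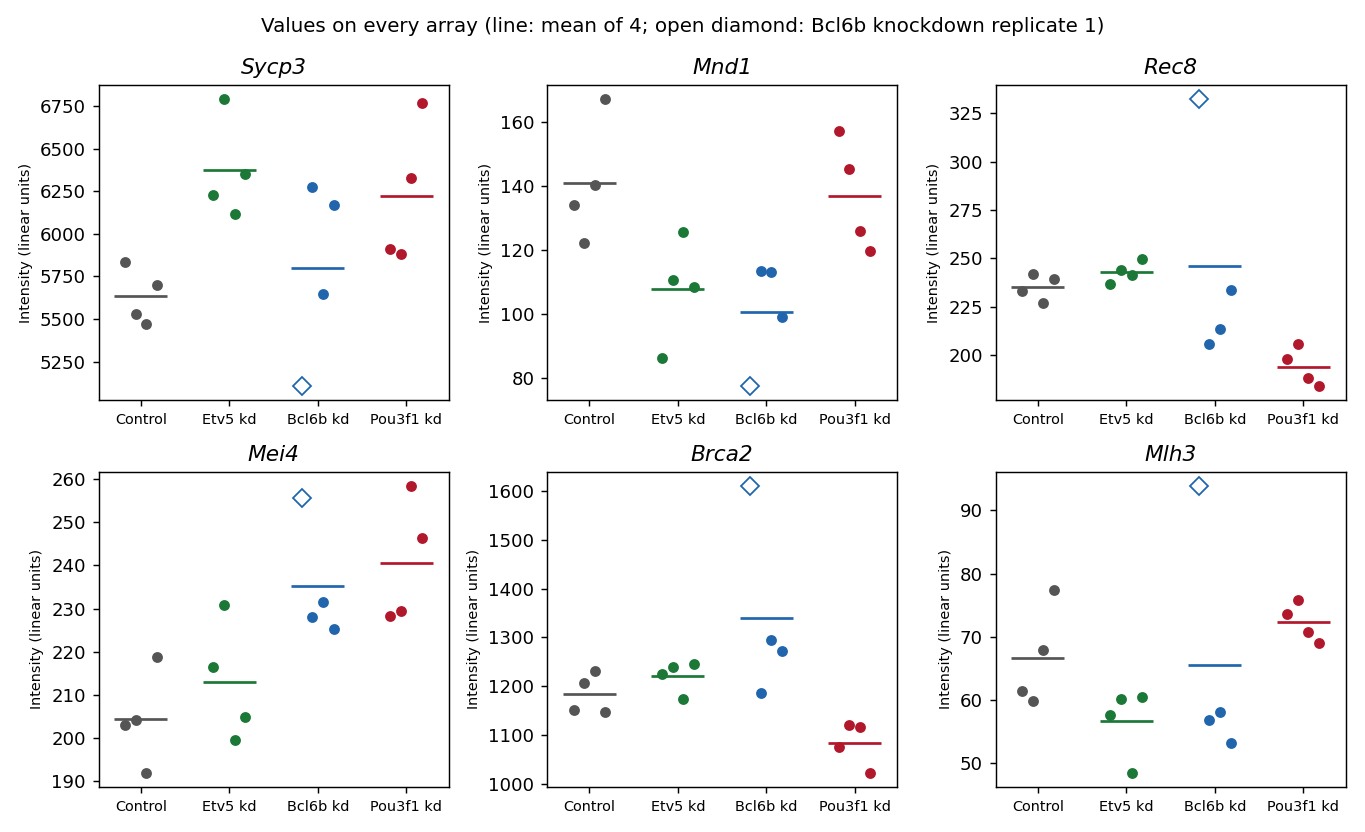
Intensity on every array (points, linear axis that does not start at 0) of Sycp3, Mnd1, Rec8, Mei4, Brca2 and Mlh3 in the 4 groups, with the mean of each group as a line and Bcl6b knockdown replicate 1 as an open diamond. Sycp3 in Etv5 knockdown and Mei4 in Pou3f1 knockdown lie above all control arrays, Rec8 in Pou3f1 knockdown lies below them, and the open diamond is far from its group for Rec8, Brca2 and Mlh3.

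The brightest probe set of each role is described here where it was not called. Trip13 read 3938, 3753, 3772 and 3793 on the control arrays, 3831, 4155, 4088 and 3556 in Etv5 knockdown, 4838, 3730, 4006 and 3828 in Bcl6b knockdown and 3972, 3980, 4270 and 3698 in Pou3f1 knockdown. Its groups overlapped throughout, and replicate 1 of Bcl6b knockdown was its highest array. Smc1b read 1669, 1716, 1651 and 1611 on the control arrays, 1618, 1482, 1664 and 1442 in Etv5 knockdown, 1515, 1643, 1612 and 1599 in Bcl6b knockdown and 1674, 1560, 1613 and 1417 in Pou3f1 knockdown. This cohesin gene differed from control by -0.10, -0.06 and -0.09, with overlap in every group.

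Tex11, an X-linked gene of crossover formation and pairing, read 2470, 2465, 2319 and 2405 on the control arrays, 2555, 2572, 2751 and 2360 in Etv5 knockdown, 2238, 2271, 2344 and 2463 in Bcl6b knockdown and 2507, 2464, 2669 and 2634 in Pou3f1 knockdown. Its groups overlapped with control, at differences of 0.08, -0.05 and 0.09. Ythdc2 read 328, 347, 304 and 331 on the control arrays, 333, 336, 304 and 306 in Etv5 knockdown, 267, 388, 307 and 359 in Bcl6b knockdown and 317, 367, 390 and 364 in Pou3f1 knockdown, where its difference was 0.13. Hspa2 read 318, 377, 347 and 369 on the control arrays, 322, 337, 377 and 346 in Etv5 knockdown, 495, 299, 310 and 357 in Bcl6b knockdown and 387, 368, 345 and 363 in Pou3f1 knockdown. Both genes overlapped with control in every knockdown and were not called with or without Bcl6b knockdown replicate 1.

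Between knockdowns no meiosis gene was called with 16 arrays. The count was 0 of 26 for Etv5 against Bcl6b knockdown (1.49% of all tested genes), for Etv5 against Pou3f1 knockdown (1.44%) and for Bcl6b against Pou3f1 knockdown (2.18%). There were 2, 7 and 7 genes at an unadjusted p under 0.05. Brca2 came closest. It read 1076, 1120, 1117 and 1024 in Pou3f1 knockdown, 1226, 1239, 1175 and 1246 in Etv5 knockdown, and 1610, 1186, 1294 and 1273 in Bcl6b knockdown. The Pou3f1 knockdown arrays were below all arrays of the other 3 groups, since the controls read 1152, 1207, 1231 and 1148. The difference of Bcl6b from Pou3f1 knockdown was 0.30 (SE 0.074, adjusted p = 0.0501) with 16 arrays and 0.21 (SE 0.046, adjusted p = 0.0113) without replicate 1, which was the highest Brca2 value. The difference of Pou3f1 knockdown from control was -0.13 and was not called (adjusted p = 0.551 with and 0.0607 without that array).

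Without Bcl6b knockdown replicate 1, Rec8, Brca2 and Mlh3 differed between Etv5 and Pou3f1 knockdown (3 of 26, against 6.38% of all tested genes). Rec8 was higher in Etv5 knockdown by 0.32 (adjusted p = 0.00171) and Brca2 by 0.17 (adjusted p = 0.0217), while Mlh3 was lower, with a difference of -0.35 (adjusted p = 0.0251). Mlh3 read 57.6, 60.1, 48.6 and 60.5 in Etv5 knockdown and 73.6, 75.9, 70.8 and 69.1 in Pou3f1 knockdown. In Bcl6b knockdown Mlh3 read 93.9 on replicate 1 and 56.9, 58.2 and 53.2 on the others. Without replicate 1, Bcl6b differed from Pou3f1 knockdown in Mlh3 by -0.36 (adjusted p = 0.0355) and in Brca2 (2 of 26, against 5.13%). With it, the Mlh3 difference was -0.18 (adjusted p = 0.504). Against control, where Mlh3 read 61.4, 59.9, 67.9 and 77.4, no knockdown was called, and 0 of 26 genes differed between Etv5 and Bcl6b knockdown without replicate 1 (4.51% of all tested genes, 3 genes at an unadjusted p under 0.05).

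Bcl6b knockdown replicate 1 deviated for most of the genes and in both directions. Against the other 3 Bcl6b knockdown arrays it lay below for 13 of 31 genes, above for 12 and within for 6. The deviation from their mean passed 0.5 for 8 genes. Rad51c read 48.7 on replicate 1 and 434 to 468 on the others, a deviation of -3.20. That array alone set the difference of Rad51c in Bcl6b knockdown, -0.82 with it (SE 0.507, adjusted p = 0.37) and -0.02 without it (SE 0.077, adjusted p = 0.889). Sycp1, Tex12 and Mei1 deviated by -0.74, -0.72 and -0.68, and Mlh3, Psmc3ip, Hspa2 and Rec8 by 0.73, 0.63, 0.62 and 0.61.

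Where a gene had several probe sets, the deviation depended on the probe set. A second Rad51c probe set read 168 on replicate 1 against 189 to 203 on the other Bcl6b knockdown arrays, a deviation of -0.23. Psmc3ip deviated by 0.63 on the probe set used and by -0.24 on the other. Dmc1 deviated by -0.24 on the probe set used and by -1.44 on the other, which read 89.3 against 242 to 247. Exo1 deviated by 0.15 on the probe set used and by -1.29 on a second. Of the 31 genes 25 had a single probe set, so no such comparison was possible for Mlh3, Rec8, Sycp1 or Tex12. Both probe sets of Rad51c, Psmc3ip and Dmc1 were paired with the same gene and read on the same sample. Which transcripts each one matches was not examined.

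**Figure D4:**
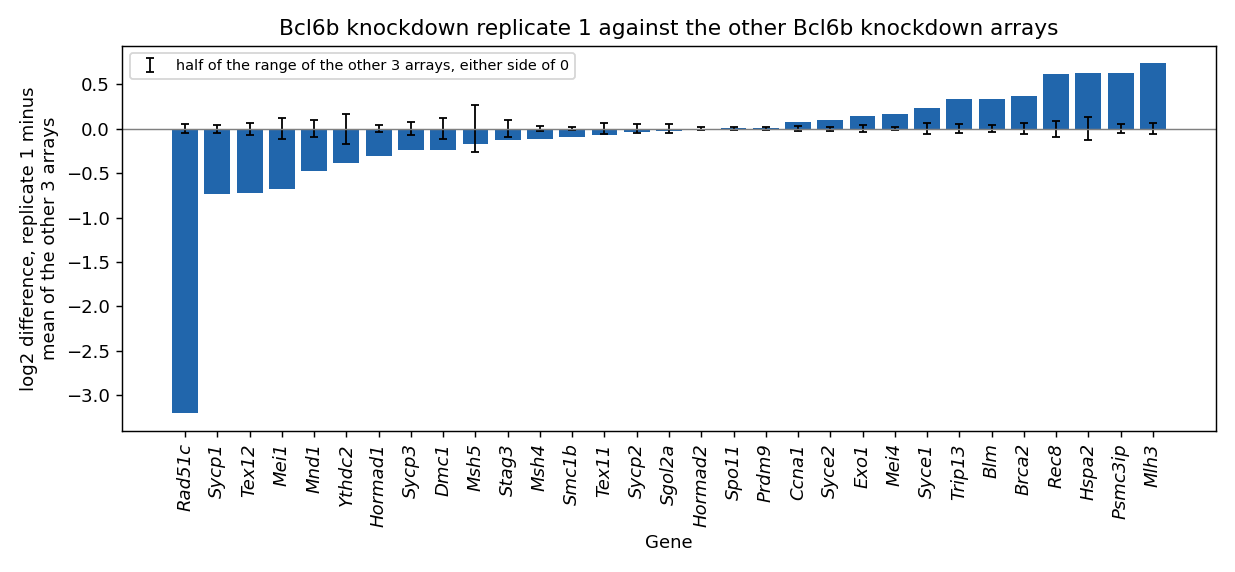
Difference (log2 of intensity + 1) of Bcl6b knockdown replicate 1 from the mean of the other 3 Bcl6b knockdown arrays for 31 meiosis genes (bars), with black lines that span the range of those 3 arrays centred on 0. Rad51c stands at -3.20, and bars run from -0.74 to 0.73 for the other 30 genes.

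Other genes of the meiotic programme were on the array as well. For this list and the lists below, the shares of all tested genes called with 16 arrays were 2.09%, 3.21% and 2.25%. These shares are for Etv5, Bcl6b and Pou3f1 knockdown. Without Bcl6b knockdown replicate 1 they were 9.52%, 11% and 11.4%. Of 29 further genes of meiotic chromosomes and recombination, 15 were tested, and 0 were called in any knockdown with 16 arrays (limma, with 0, 1 and 1 at an unadjusted p under 0.05 in Etv5, Bcl6b and Pou3f1 knockdown). When that array was left out the count was 1, Tex15, a germ cell gene needed for double-strand break repair, which rose by 0.18 in Etv5 knockdown (adjusted p = 0.0171). In that fit 6, 2 and 1 of the 15 had an unadjusted p under 0.05 in Etv5, Bcl6b and Pou3f1 knockdown. Their medians were 0.011, -0.039 and 0.045 in Etv5, Bcl6b and Pou3f1 knockdown with 16 arrays. The medians of all tested genes were -0.026, -0.010 and -0.024. Without Bcl6b knockdown replicate 1 the median in Bcl6b knockdown was 0.016, beside -0.042 for all tested genes.

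On a list drawn up for regulators and repressors of meiotic entry, 20 genes were tested and 1 was called with 16 arrays. This was Tcfl5, a transcription factor gene of spermatocytes, and its place on the list does not make it a regulator of entry. It read 1578 to 1653 on the control arrays and rose in all 3 knockdowns, by 0.89, 0.83 and 0.90 (limma adjusted p = 2.24e-08, 6.44e-08 and 1.89e-08), against the same control arrays. Leaving out Bcl6b knockdown replicate 1, 3 rose and 1 fell in Etv5 knockdown, 3 rose in Bcl6b knockdown and 2 rose in Pou3f1 knockdown. In that fit 9.52%, 11% and 11.4% of all tested genes were called in Etv5, Bcl6b and Pou3f1 knockdown. Rnf2, a Polycomb ubiquitin ligase of the complex that silences meiotic genes, was among the risers of every knockdown, by 0.16, 0.15 and 0.22. Stra8 was called in no knockdown with or without that array.

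Cell cycle genes and mitotic counterparts were read on the same arrays. Of 22 mitotic cohesin and repair genes, 1 fell in Bcl6b knockdown with 16 arrays, the histone variant gene H2ax by 0.32 (log2 difference -0.32, adjusted p = 0.00653), and 0 were called in Etv5 or Pou3f1 knockdown (2 and 3 at an unadjusted p under 0.05). Of 21 S phase genes, 1 fell, the polymerase gene Pola1 in Bcl6b knockdown (-0.29, adjusted p = 0.0407), and of 16 genes of G2 and M phase 0 were called in any knockdown (2, 3 and 1 at an unadjusted p under 0.05). Of 6 tested spermatocyte and spermatid markers, 1 fell, the kinase gene Tesk2 in Bcl6b knockdown (-0.29, adjusted p = 0.0122). Leaving out Bcl6b knockdown replicate 1, H2ax fell in every knockdown, at differences of -0.23, -0.27 and -0.19 in Etv5, Bcl6b and Pou3f1 knockdown, and the G2 and M phase genes still gave 0 calls (5, 1 and 1 at an unadjusted p under 0.05). In that fit Stag2 rose in Bcl6b (0.16) and Pou3f1 knockdown (0.14), Rad50 fell in Bcl6b (-0.16) and Atm in Pou3f1 knockdown (-0.21). Among S phase genes Ccne1 fell in Etv5 (-0.24), Pola1 fell in Bcl6b (-0.25) and Ccne2 rose in Pou3f1 knockdown (0.27). Tesk2 again fell in Bcl6b knockdown (-0.28). Of all tested genes 9.52%, 11% and 11.4% were called in Etv5, Bcl6b and Pou3f1 knockdown.

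Spermatogonial and somatic markers moved beside these results, and their part in them was not tested. Of 13 markers of undifferentiated spermatogonia tested besides the targeted gene, Lhx1 (-1.33) and Bcl6b (-1.10), both expressed in the stem cell fraction, fell in Etv5 knockdown with 16 arrays. Ret, which encodes a GDNF receptor subunit, was called higher in Bcl6b (0.35) and Pou3f1 knockdown (0.38). Of 8 markers of differentiating spermatogonia, the transcription factor gene Sohlh1 rose in Etv5 knockdown (0.61, adjusted p = 0.00116), and 0 were called in the other knockdowns (1 and 1 at an unadjusted p under 0.05). Leaving out Bcl6b knockdown replicate 1, the receptor gene Kit also rose in Etv5 knockdown (0.19, adjusted p = 0.0296), and 4 markers of undifferentiated cells fell there while Zbtb16 rose (0.25). In Pou3f1 knockdown the differentiating cell marker Ccnd2 fell (-0.19, adjusted p = 0.0481), while Zbtb16 (0.14) and Ret (0.38) rose. In Bcl6b knockdown Ret rose (0.30). Of all tested genes 9.52%, 11% and 11.4% were called in Etv5, Bcl6b and Pou3f1 knockdown in that fit. Summed without the 3 siRNA targets, 11 markers on the list of undifferentiated cells ran from 31642 to 33049.6 in Etv5 knockdown, against 33362 to 33884 on the control arrays. They ran from 31456 to 33867 in Bcl6b knockdown and from 33294 to 36077 in Pou3f1 knockdown. The 11 included the germ cell genes Ddx4, at 6709 to 7104 on the control arrays, and Dazl, at 16449 to 16778. Those genes made up most of the control sum, so the sums do not stand for the undifferentiated state alone. With the targets included, the lowest Bcl6b knockdown sum, 34555, was that of replicate 1.

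Of 14 fibroblast markers, the intermediate filament gene Vim rose in every knockdown with 16 arrays, by 0.33, 0.29 and 0.35 in Etv5, Bcl6b and Pou3f1 knockdown. The summed intensity of the 14 ran from 187041 to 189209 on the control arrays, from 193347 to 202744 in Etv5 knockdown, from 184538 to 195918 in Bcl6b knockdown and from 188930 to 194728 in Pou3f1 knockdown. The summed spermatocyte and spermatid markers, 6 of 18 above the median, ran from 1430 to 1523 on the control arrays, 1434 to 1589 in Etv5 knockdown, 1369 to 1470 in Bcl6b knockdown and 1327 to 1484 in Pou3f1 knockdown, and thus overlapped in every group. The lowest Bcl6b knockdown sum, 184538 for fibroblast markers and 1369 for spermatocyte and spermatid markers, was replicate 1. Ranges of these sums without that array are not given here. Of 3 Sertoli cell and 7 macrophage markers tested, 0 were called in any knockdown with 16 arrays (1, 2 and 0 Sertoli cell markers and 1, 1 and 1 macrophage markers at an unadjusted p under 0.05). The summed Sertoli cell markers were 10705 on Bcl6b knockdown replicate 1, against 7090 to 7599 on the control arrays, and the summed macrophage markers were 905 on it, against 682 to 777. Leaving out that array, the macrophage lysozyme gene Lyz2 (-1.57, adjusted p = 0.00888) and the Sertoli cell marker Rhox5 (-0.15) fell in Etv5 knockdown, and the Sertoli cell marker Clu rose in Etv5 and Pou3f1 knockdown (0.15 in each). In the same fit more fibroblast markers were called, 3 higher in Etv5 knockdown, 2 higher and 2 lower in Bcl6b knockdown, and 2 higher and 4 lower in Pou3f1 knockdown, where Col1a1 fell (-0.23, adjusted p = 0.025). Of all tested genes 9.52%, 11% and 11.4% were called in Etv5, Bcl6b and Pou3f1 knockdown in that fit.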

How the data were processed

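RNA of 16 samples was taken up in Trizol, treated with DNase, primed with oligo(dT) and labelled with biotin, per the labels' protocols. The authors deposited linear probe set intensity values, from 1.66 to 71511. Partek 6.4, Affymetrix Expression Console 1.1, GCRMA and MAS5 appear in the submitters' processing notes with no role, so how background was removed from these intensities was not given in the sources used here. Of 45037 probe sets, 34945 were paired with 1 gene, 932 with several and 9160 with none, and the first kind was named. For each of 18193 genes, the brightest probe set over 16 arrays was kept, as log2(intensity + 1), a scale that understates changes of dim genes.

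Genes above the array median on at least 4 arrays were tested, 11145 with 16 arrays and 11121 without Bcl6b knockdown replicate 1. A single limma 3.58.1 fit in R 4.3.3 held all 4 groups (lmFit, then eBayes with trend). Tests were two-sided, p-values were adjusted by Benjamini-Hochberg over every gene in the fit, and calls needed an adjusted p under 0.05. The code was tested on simulated data. Promoters came from RefSeq, GRCm38.p6, and no coordinates came from the array files. Where a gene had several windows, the one with the most CpG is printed. Figures used matplotlib 3.10.9 in Python 3.11.15.

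Members and lists were chosen with earlier results of these data known. Values on every array are given for members called in any of the 6 comparisons, for the smallest p and for the highest mean in each role. From other lists up to 4 called genes are named for each comparison. Alternatives were another pseudocount, filter, normalization, probe set rule, array weights, no trend, only the groups compared, a replicate block and each array left out.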

Additional observations from a re-analysis of the deposited data

Results flagged for a closer look

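In 124 groups of 4 arrays (31 genes in 4 groups), 12 held an array far from the other 3 by Dixon's ratio of the gap to the whole range, past its 95% critical value, which chance passes in about 1 of 20 groups. Of the 12, 5 were Bcl6b knockdown replicate 1. It was low for Sycp1 at 838 against 1344 to 1431 (ratio 0.882), for Tex12 at 669 against 1063 to 1167 (0.831) and for Rad51c at 48.7 against 434 to 468 (0.966). It was high for Psmc3ip at 1104 against 693 to 744 (0.849) and for Mlh3 at 93.9 against 53.2 to 58.2 (0.843). The cause was not tested.

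The other 7 lay on other arrays. Control replicate 3 was low for Hormad1 at 530 against 622 to 628 (0.95) and for Hormad2 at 80.6 against 92.1 to 92.4 (0.974), and high for Msh5 at 10.7 against 8.87 to 8.93 (0.963). Sgol2a was high on Bcl6b knockdown replicate 4 at 384 against 359 to 361 (0.912) and on Pou3f1 knockdown replicate 3 at 394 against 360 to 362 (0.965). Msh5 was high on Bcl6b knockdown replicate 3 at 13.3 against 8.87 to 8.95 (0.98), and Prdm9 was high on Etv5 knockdown replicate 1 at 6.04 against 4.51 to 4.59 (0.937).

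Without Bcl6b knockdown replicate 1, a test of the difference itself separated knockdowns for 3 genes. Etv5 exceeded Pou3f1 knockdown in Rec8 by 0.32 and in Brca2 by 0.17 and differed from it by -0.35 in Mlh3. Bcl6b exceeded Pou3f1 knockdown in Brca2 by 0.21 and differed from it by -0.36 in Mlh3.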

How the results depend on the processing

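With 16 arrays, 0 of 26 genes were called in each of the 6 comparisons, and this count is the value that settings moved. Array weights gave 3 calls in Etv5, 2 in Bcl6b and 4 in Pou3f1 knockdown against control, 6 between Etv5 and Pou3f1 and 3 between Bcl6b and Pou3f1 knockdown, where 14.9%, 18.7%, 15.6%, 8.56% and 8.15% of all tested genes were called. Fitting only the groups compared gave 1 in Etv5 (Sycp3), 2 in Pou3f1 (Mei4 and Rec8) and 1 between Etv5 and Pou3f1 knockdown (Rec8), where 8.94%, 10.2% and 2.92% of all genes were called. Median centring gave 1 in Bcl6b knockdown (Mnd1), where 6.67% of all genes were called and it moved the median of all tested genes to -0.07. A pseudocount of 16, keeping genes of mean log2 value over 5, quantile normalization and the mean over probe sets each gave 1 between Bcl6b and Pou3f1 knockdown, Brca2, at 2.22% to 2.60% of all genes. Leaving out 1 array at a time gave 0 to 2 in Etv5, 0 in Bcl6b and 0 to 2 in Pou3f1 knockdown, 0 to 3 between Etv5 and Pou3f1 and 0 to 2 between Bcl6b and Pou3f1 knockdown. All such calls came without Bcl6b knockdown replicate 1, except Brca2 without Bcl6b knockdown replicate 2 (0.35, adjusted p = 0.0198), where 2.00% of all genes were called. Without replicate 1, 9.52% of all genes were called in Etv5 and 11.4% in Pou3f1 knockdown. Between Etv5 and Pou3f1 knockdown 6.38% were called, and between Bcl6b and Pou3f1 knockdown 5.13%. A replicate block gave 0 calls in all 6 comparisons. The deviations of 24 same-numbered pairs correlated at -0.26 to 0.20, 5 were over 0.1, and 6 of 16 arrays correlated best with their own number. These deviations were taken from group means that include Bcl6b knockdown replicate 1, so this check cannot exclude a pairing by number. Added after seeing the data, the replicate block with Bcl6b knockdown array 1 left out gave 1 in Etv5, 2 in Pou3f1, 3 between Etv5 and Pou3f1 and 1 between Bcl6b and Pou3f1 knockdown. In these comparisons 9.37%, 11.2%, 5.96% and 4.50% of all tested genes were called. Also added, no filter with that array left out gave 1, 2, 2 and 1 in the same comparisons. There 4.51%, 5.39%, 2.56% and 2.47% of all genes were called. Without the filter Mnd1 in Etv5 knockdown and Mlh3 in both comparisons of knockdowns were not called. The median difference in Bcl6b knockdown, -0.010, was 0.0062 without a filter, -0.0696 with median centring, 0.017 with quantile normalization and -0.010 to 0.011 with 1 array left out. Except where stated, the cause was not tested. Probe sets below the array median, down to near the floor for Prdm9, limit what can be said of Spo11, Prdm9, Msh4, Msh5 and Ccna1.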
